A study of Homo sapiens with 10 samples.

Results

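The H3K4me1-only peaks were rows of the deposited H3K4me1 peak list that shared no base with any H3K4me3, H3K27Ac or FAIRE peak of the same cells. They were selected on the positions in the 4 lists, on chromosomes 1 to 22, and numbered 3636 of the 26355 H3K4me1 peaks on these chromosomes (13.8%) and of 128837 peaks in the 4 lists together. The cells were MDAMB231, an established human breast cancer line that lacks the estrogen receptor, the progesterone receptor and HER2 amplification. They were grown without treatment in DMEM with 5% FBS, and there were 2 samples each for H3K4me1, H3K4me3 and H3K27Ac ChIP-seq with 1 ChIP input, and 2 FAIRE-seq samples with 1 FAIRE input, after crosslinking in 1% formaldehyde. Each assay had 1 list for its 2 samples together, so no value below carries replicate error and no test between samples was possible. The read depth behind the peaks is not given in the lists. Intervals are 95% Wilson intervals for shares and 95% order-statistic intervals for medians. They cover counting error over peaks only, and peaks that neighbour each other on a chromosome are not independent.

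H3K4me1 is placed on nucleosomes that flank enhancers, usually before the enhancer drives transcription. H3K27Ac is added when enhancers and promoters are active, H3K4me3 marks the start sites of active and of many poised genes, and FAIRE recovers DNA that is free of nucleosomes. Enhancers with H3K4me1 and no H3K27Ac are called primed or poised, and factors of the AP-1 family, dimers of Fos and Jun proteins, are known to bind many enhancers.

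The label of the cell line was checked at start sites of marker genes. An H3K4me3 peak lay within 1 kb of a start of 6 of 6 genes known to be expressed in the line (VIM, CD44, AXL, CAV1, ZEB1 and EGFR), each with a score of 3100, which is also the median of the H3K4me3 list and close to its highest value of 3233, so it does not rank these genes. The score is the deposited value, in which each 10 units stand for a 10-fold smaller p-value from MACS, the peak caller. Among 6 genes known to be low or absent, KRT5 and CDH1 had no H3K4me3 peak at a start, while ESR1, PGR, GATA3 and FOXA1 had one, with scores of 1258, 399.5, 2395 and 2735. H3K27Ac was present at starts of all 6 expressed markers and of 2 of the 6 others, GATA3 and CDH1. H3K4me3 at a start therefore did not separate the marker sets completely, and it is used below as a state of the gene and not as its expression.

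The sequences at the centres of the 4 highest-scoring H3K4me1-only peaks are shown as the regions of strongest signal. Each is 200 bases of the plus strand of GRCh37 (hg19), and motif letters would stand in capitals. The peaks were nearest to BLID (chr11:121975951-121976150), ZFAND3 (chr6:38047551-38047750), FRMD6 (chr14:52141718-52141917) and NRSN1 (chr6:23533503-23533702). The last line, for comparison, is the centre of the highest-scoring H3K4me1 peak with both H3K27Ac and FAIRE and no H3K4me3, nearest to IFIT2 (chr10:91039925-91040124).
BLID: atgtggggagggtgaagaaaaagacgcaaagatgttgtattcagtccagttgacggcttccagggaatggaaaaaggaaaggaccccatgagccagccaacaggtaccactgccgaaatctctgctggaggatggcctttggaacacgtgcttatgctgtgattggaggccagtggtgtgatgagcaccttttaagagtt
ZFAND3: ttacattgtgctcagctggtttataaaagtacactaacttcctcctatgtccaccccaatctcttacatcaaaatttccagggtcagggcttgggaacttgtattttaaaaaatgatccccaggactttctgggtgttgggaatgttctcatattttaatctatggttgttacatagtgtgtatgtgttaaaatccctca
FRMD6: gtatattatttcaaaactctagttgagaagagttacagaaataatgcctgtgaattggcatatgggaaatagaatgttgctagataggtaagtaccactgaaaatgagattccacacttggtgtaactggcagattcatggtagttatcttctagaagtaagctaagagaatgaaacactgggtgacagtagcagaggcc
NRSN1: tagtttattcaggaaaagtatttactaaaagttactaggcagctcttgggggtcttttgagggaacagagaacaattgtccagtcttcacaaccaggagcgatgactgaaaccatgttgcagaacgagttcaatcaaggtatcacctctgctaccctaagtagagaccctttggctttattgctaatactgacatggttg
IFIT2: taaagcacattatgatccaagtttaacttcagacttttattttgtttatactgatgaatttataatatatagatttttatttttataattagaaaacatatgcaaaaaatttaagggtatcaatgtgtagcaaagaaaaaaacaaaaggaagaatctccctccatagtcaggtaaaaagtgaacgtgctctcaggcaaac
None of these windows held any of the 7 motifs searched on both strands, those of AP-1, forkhead, RUNX, ETS, TEAD and GATA factors and the core of the CTCF motif, so no letter is in capitals. AP-1 letters did occur elsewhere in these peaks, and all 10 of the highest-scoring peaks held them somewhere in the peak, 1 of them in the central 500 bases. These 10 were from 3109 bp to 12707 bp wide, against a median of 2153 bp. Over all H3K4me1-only peaks there were 0.584 matches per kb of peak, and 41.9% of peaks had one in the central 500 bases. GC content of the 4 windows was 50%, 38%, 38% and 42%, and 27.5% in the window near IFIT2.

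A second set shows the AP-1 letters, TGANTCA with N for any base, which are examined further below. These are 60 bases of the plus strand at the centres of 5 of the highest-scoring H3K4me1-only peaks with these letters within 20 bases of the centre, and the capitals mark it. The set was chosen after the motif counts were seen. The peaks were nearest to SEPTIN11 (chr4:77928736-77928795), LIMCH1 (chr4:41411457-41411516), GPR31 (chr6:167554846-167554905), DCAF8 (chr1:160226954-160227013) and PTPRJ (chr11:48053689-48053748), with scores of 206, 200.3, 197, 184 and 154.
SEPTIN11: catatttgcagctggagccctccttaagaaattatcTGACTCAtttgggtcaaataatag
LIMCH1: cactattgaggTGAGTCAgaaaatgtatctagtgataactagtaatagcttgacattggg
GPR31: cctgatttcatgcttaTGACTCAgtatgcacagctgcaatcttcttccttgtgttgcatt
DCAF8: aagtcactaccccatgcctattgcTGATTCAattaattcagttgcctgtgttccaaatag
PTPRJ: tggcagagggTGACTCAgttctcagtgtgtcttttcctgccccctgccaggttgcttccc
TGANTCA reads the same on both strands. It stood within 20 bases of the centre in 167 of the 3636 peaks (4.59%, 3.96% to 5.32%). Among 1798 matches in the central 500 bases, 1254 (69.7%, 67.6% to 71.8%) had C or G at the open letter, the form of the classical AP-1 site.

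H3K4me1-only peaks were narrow and had low scores. Their median width was 2153 bp (quartiles 1830 bp and 2625 bp) and their median score 70.8 (quartiles 58.1 and 94.5), where the lowest score in the list was 50.01. The narrowest spanned 1209 bp and the widest 12707 bp, and scores ran from 50.03 to 446.7. Of the 3636 peaks, 2580 (71%) combined a score under 100 with a width under 3 kb, 88 (2.42%) had a score of 200 or more and 66 (1.82%) were at least 5 kb wide. A wider peak meets another peak more easily, so width and score bear on the choice of these peaks and are given as a description. They were compared with the other H3K4me1 peaks of chromosomes 1 to 22 that had no H3K4me3, in 3 classes. Median widths were 2385 bp for the 2955 peaks with FAIRE and no H3K27Ac, 2577 bp for the 2482 peaks with H3K27Ac and no FAIRE, and 3541 bp for the 13157 peaks with both. Median scores in the same order were 85, 97.3 and 167.6. The H3K4me1-only peaks thus stood at the low end of both scales, with much overlap between neighbouring classes.

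**Figure D1:**
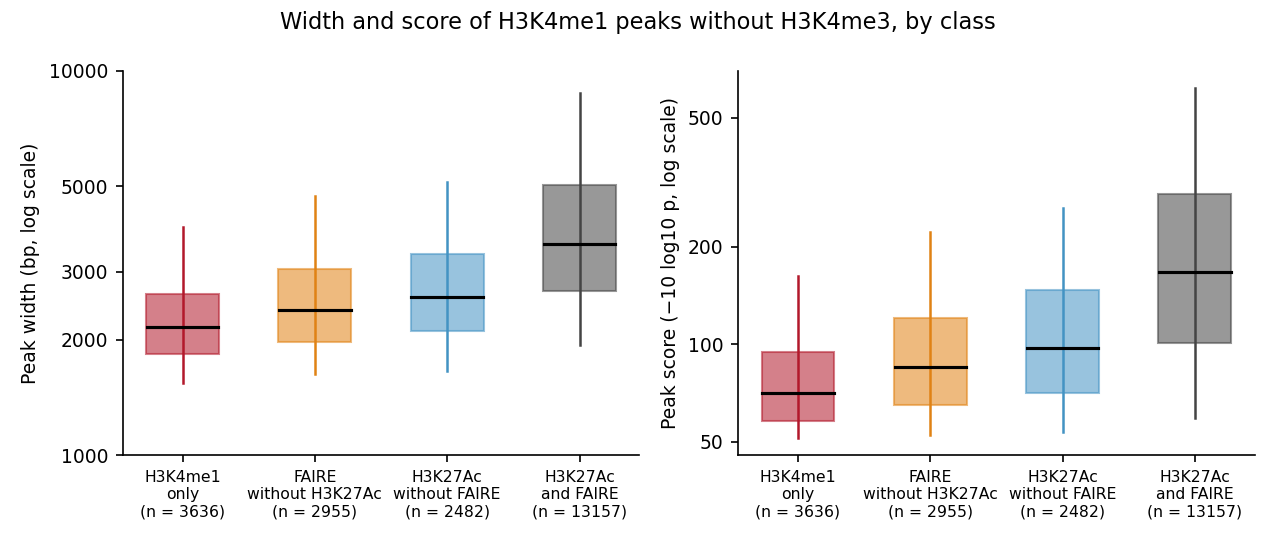
Width in bp (left) and score (right, no unit) of H3K4me1 peaks without H3K4me3 in 4 classes, both on log axes, with boxes from the first to the last quartile, a black line at the median and thin lines from the 5th to the 95th percentile. The H3K4me1-only class had the lowest medians, 2153 bp and 70.8.

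The choice turned on a single base. The H3K4me1-only peak with the smallest gap to another list lay in an intron of HDAC9, a histone deacetylase gene (chr7:18552711-18555118, score 65.1), and was 8 bp from an H3K27Ac peak. A peak upstream of VLDLR, a lipoprotein receptor gene (chr9:2567806-2570337, score 63.9), was 24 bp from a FAIRE peak and 247 bp from an H3K27Ac peak. Just on the other side, an H3K4me1 peak near SPCS3 (chr4:177326853-177328742, score 64.3) shared 1 base with a FAIRE peak if starts count from 0, as assumed here, and a peak in an intron of LHFPL2 (chr5:77863690-77866127, score 120) shared 3 bases with an H3K27Ac peak. Such cases were few, with 11 H3K4me1-only peaks less than 100 bp from another list and 6 peaks left out for under 100 shared bases.

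Gaps to the other lists describe the surroundings of H3K4me1-only peaks, and no gaps from other positions of the genome were computed to set beside them. The median gap was 12322 bp to the nearest H3K27Ac peak, 12220 bp to the nearest FAIRE peak and 50618 bp to the nearest H3K4me3 peak. An H3K27Ac peak was less than 1 kb away for 188 peaks (5.17%), less than 5 kb for 1026 (28.2%) and less than 100 kb for 3403 (93.6%). FAIRE peaks were less than 1 kb away for 75 (2.06%) and less than 5 kb for 905 (24.9%). Peaks with no member of the 3 other lists within 100 kb numbered 87 (2.39%). The nearest H3K4me1 peak of another class was at a median gap of 14538 bp, and the nearest other H3K4me1-only peak at 100974 bp. The 3636 H3K4me1-only peaks are far fewer than the other H3K4me1 peaks, and gaps expected for sets of these sizes were not computed.

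**Figure D2:**
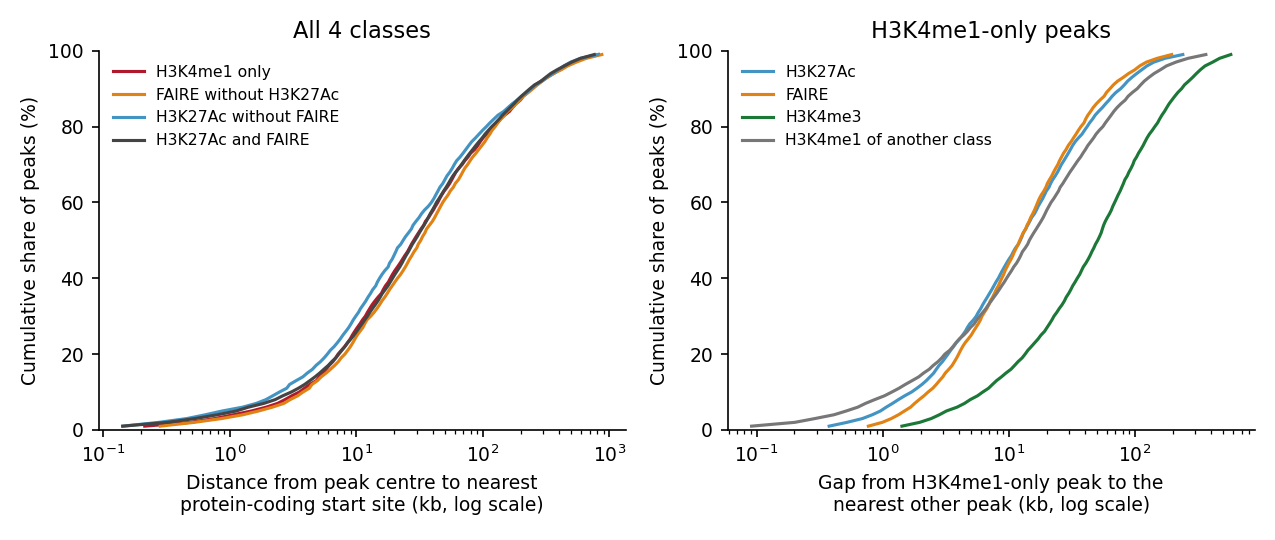
Left, cumulative share of peaks by distance in kb (log axis) from the centre to the nearest protein-coding start site, in the 4 classes. Right, cumulative share of H3K4me1-only peaks by the gap in kb (log axis) to the nearest peak of each other list, where the curves for H3K27Ac and FAIRE pass 50% near their medians of 12322 bp and 12220 bp.

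By position, H3K4me1-only peaks were intronic slightly more often than not. The centre lay in an intron of a protein-coding gene (GENCODE v44lift37) in 1936 peaks (53.2%, 51.6% to 54.9%), against 51.9% of all H3K4me1 peaks of chromosomes 1 to 22. It lay outside protein-coding genes in 1589 (43.7%, 42.1% to 45.3%), against 44%, and in an exon in 111 (3.05%, 2.54% to 3.66%), against 4.12% (3.89% to 4.37%). The shares in introns and outside genes are near those of the whole list, and the exon share as called is lower with intervals apart. Between the width quartiles the exon intervals overlapped, at 2.36% (1.76% to 3.17%) and 3.34% (2.96% to 3.77%). The whole list includes peaks that share H3K4me3, of which 8.73% lay in exons. The intron share was 47.9% (46.1% to 49.7%) in the class with FAIRE alone and 49.7% (48.9% to 50.6%) in the class with both, and neither interval overlaps that of the H3K4me1-only peaks. The class with H3K27Ac alone had 53.7% (51.7% to 55.6%), and that interval does overlap. Among peaks with widths between the quartiles of the H3K4me1-only peaks, a comparison of classes added after seeing the data, the intron shares were 53.3% (51% to 55.6%) for H3K4me1-only peaks, 47.8% (45.2% to 50.5%) with FAIRE alone, 52.3% (49.2% to 55.3%) with H3K27Ac alone and 46.2% (44.3% to 48.1%) with both. At similar width the interval of the H3K4me1-only peaks thus stayed apart from those of the classes with FAIRE.

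Of the 1589 H3K4me1-only peaks outside protein-coding genes, 555 (34.9%, 32.6% to 37.3%) had the centre in a gene annotated as lncRNA, near the 33.4% of all H3K4me1 peaks outside protein-coding genes, and 1008 (63.4%, 61% to 65.8%) lay in no annotated gene at all. For the intronic peaks, the nearest protein-coding start belonged to a gene holding the peak in 1818 of 1936 (93.9%, 92.8% to 94.9%). The intronic peaks were a median of 15059 bp (13599 bp to 16122 bp) from that start, and the peaks outside genes 83546 bp (76194 bp to 92160 bp).

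Over all 3636 peaks the median distance from the centre to the nearest protein-coding start was 28475 bp (26655 bp to 30538 bp), counting every transcript start, and 71370 bp with only the most upstream start of each gene. A start lay within 1 kb of 136 peaks (3.74%), within 10 kb of 970 (26.7%) and within 100 kb of 2797 (76.9%). Over all H3K4me1 peaks, which include those sharing H3K4me3, the median was 22640 bp (22015 bp to 23300 bp) and the shares 7.05%, 33.8% and 79.6%, so as called H3K4me1-only peaks were farther from starts than the list as a whole. The median distance was 32295 bp (30181 bp to 34665 bp) with FAIRE alone, 23429 bp (21122 bp to 25848 bp) with H3K27Ac alone and 29021 bp (27922 bp to 30074 bp) with both. The interval of the H3K4me1-only peaks overlaps the first and the last of these and lies above that of H3K27Ac alone. Between the width quartiles the separations of the median from H3K27Ac alone and from the whole list were both lost, with 31688 bp (28263 bp to 35156 bp) for H3K4me1-only peaks, 28588 bp (24204 bp to 32809 bp) with H3K27Ac alone and 28353 bp (26893 bp to 29783 bp) over all H3K4me1 peaks. The shares near a start stayed apart from the whole list there. Within 1 kb they were 3.35% (2.62% to 4.28%) against 5.67% (5.18% to 6.22%). Within 10 kb they were 25.7% (23.7% to 27.7%) against 30% (29% to 31%). Those within 100 kb overlapped, at 75.9% (73.8% to 77.8%) and 75.5% (74.5% to 76.4%). Peaks that share H3K4me3, left out by the choice, were within 1 kb in 23.65% and within 10 kb in 79.6% there. The separations from the whole list are thus partly fixed by the choice. Within 1 kb the shares were 2.98% with FAIRE alone, 3.8% with H3K27Ac alone and 4.09% with both. Within 10 kb they were 24.1%, 26.4% and 22.8%, and all these intervals overlap those of the H3K4me1-only peaks. The centre was upstream of the nearest start in 48.6% (46.9% to 50.2%), so H3K4me1-only peaks stood on both sides of start sites about equally often.

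Genes nearest to H3K4me1-only peaks mostly carried promoter marks of their own. For 2960 peaks (81.4%, 80.1% to 82.6%) the nearest protein-coding gene had an H3K4me3 peak within 1 kb of a start, a share near the 82.6% of all H3K4me1 peaks. It was 77.5% (76% to 79%) with FAIRE alone, 82.1% (80.6% to 83.6%) with H3K27Ac alone and 80.7% (80% to 81.3%) with both, and as called only the interval of FAIRE alone lies apart from that of the H3K4me1-only peaks. That separation was lost between the width quartiles, at 81.3% (79.5% to 83%) for H3K4me1-only peaks and 77.9% (75.6% to 80%) with FAIRE alone, and also at p at or under 1e-10, at 82.3% (79.4% to 84.8%) and 77.6% (75.1% to 80%). Among all 19229 protein-coding genes of these chromosomes, 13081 (68%) had H3K4me3 at a start. The nearest gene had H3K27Ac at a start for 80.9% (79.5% to 82.1%) of the H3K4me1-only peaks and FAIRE for 57.2% (55.6% to 58.8%), against 83.1% (82.7% to 83.6%) and 58.7% (58.1% to 59.3%) of all H3K4me1 peaks. Between the width quartiles the H3K27Ac intervals of the H3K4me1-only peaks and of all H3K4me1 peaks overlapped, at 80.9% (79% to 82.6%) and 81.2% (80.3% to 82%). In the class with FAIRE alone the H3K27Ac share was 75.3% (73.7% to 76.9%) as called. It was 75.7% (73.3% to 77.9%) between the width quartiles, and the H3K4me1-only intervals lie above it in both settings. The FAIRE share in that class was 52.8% (51% to 54.6%) as called, also lower. Between the width quartiles it overlapped, at 52.2% (49.5% to 54.8%) against 56.6% (54.3% to 58.9%). The share with H3K4me3 was 86.2% (84.6% to 87.7%) for intronic peaks and 75.5% (73.3% to 77.6%) for those outside genes.

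**Figure D3:**
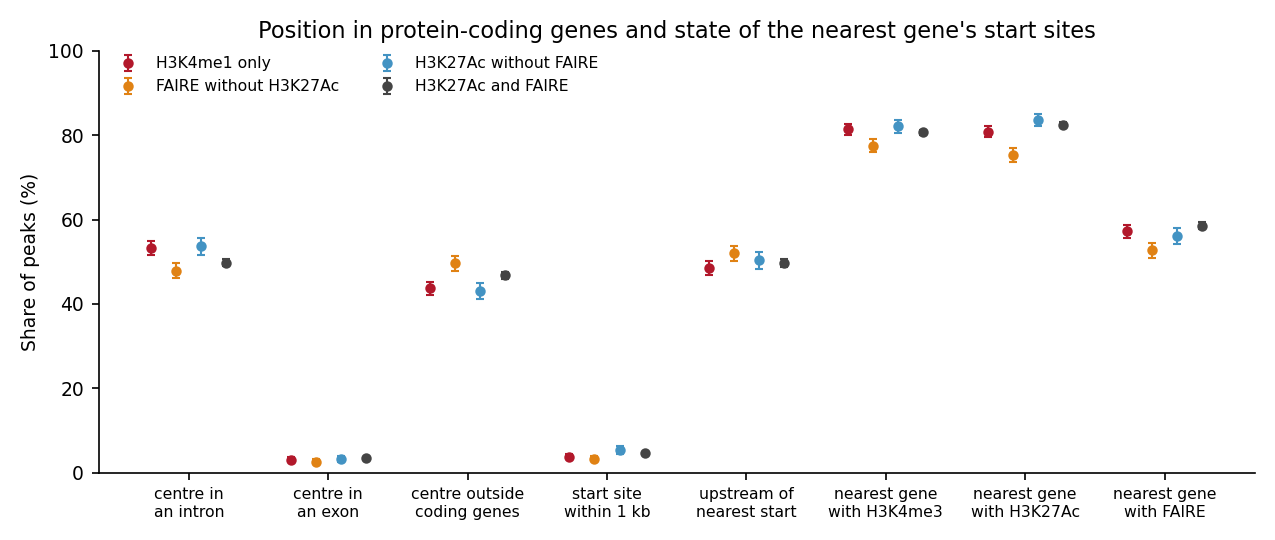
Share of peaks in percent, with 95% Wilson intervals, for the position of the centre in protein-coding genes and for marks within 1 kb of a start of the nearest protein-coding gene, in the 4 classes. Intron shares were 53.2% for H3K4me1-only peaks and 47.9% for peaks with FAIRE and no H3K27Ac, while the shares with H3K4me3 at the nearest gene ranged from 77.5% to 82.1%.

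In the H3K4me1-only peaks with a start within 1 kb, the nearest gene had H3K4me3 at one of its starts in 105 of 136 cases. Over all H3K4me1-only peaks it did in 2960 of 3636 (81.4%). The 6 of highest score were chosen after the values were seen. A peak of 9302 bp covered a start of IQSEC1, an ARF exchange factor gene (chr3:13058862-13068163, score 283.8), and was 21566 bp from the nearest H3K4me3 peak. The peaks at starts of SLC1A3, a glutamate transporter gene (chr5:36666842-36669431, score 163), and MARK3, a kinase gene (chr14:103882194-103885600, score 160.6), were 58328 bp and 27496 bp from H3K4me3. A peak at an internal start of FHIT, the gene at a common fragile site (chr3:60065492-60068422, score 156), was 260721 bp from it. Nearer to H3K4me3 were the peaks at ASPM, a mitotic spindle gene (chr1:197106151-197112854, score 188), at 161 bp, and DNAAF3, a gene for a dynein assembly factor (chr19:55669263-55673171, score 220), at 3482 bp. Starts far from H3K4me3 and starts close to it were thus both present among these 6. Each of the 6 genes had an H3K4me3 peak within 1 kb of some start. In IQSEC1, SLC1A3, MARK3 and FHIT this was therefore a different start from the one at the H3K4me1-only peak.

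The highest score, 446.7, and the largest width, 12707 bp, belonged to the same H3K4me1-only peak (chr11:121969698-121982404). It lay in MIR100HG, a lncRNA gene that hosts microRNAs, 10872 bp from the start of BLID, a gene for a cell death inducer, which had none of H3K4me3, H3K27Ac and FAIRE at its start. A further peak of the highest 10 lay on the other side of that start (chr11:121992065-121999799, score 287.6, 7735 bp wide). The next in score were peaks in introns of ZFAND3 (chr6:38045209-38050092, 360.4) and FRMD6, a gene for a FERM domain protein (chr14:52138199-52145436, 338.5), and a peak 592811 bp from the start of NRSN1, a neuronal gene (chr6:23531479-23535727, 338.2). The other peaks among the highest 10 were nearest to ZNF644 (321.4), RAPGEF2, a Rap exchange factor gene (307.5), BAMBI, a gene for a decoy receptor of TGF-beta signaling (305.8), PELO (293) and IQSEC1 (283.8). Of these 10 peaks, 7 were outside protein-coding genes and 5 in lncRNA genes, and the nearest gene had H3K4me3 for 7. Over all H3K4me1-only peaks, 43.7% were outside protein-coding genes and 15.3% were outside them in a lncRNA gene. The nearest gene had H3K4me3 for 81.4%.

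The 5 widest H3K4me1-only peaks were those at BLID and IQSEC1 and intronic peaks of BCAR3, a gene known from antiestrogen resistance (chr1:94111598-94121960, 10363 bp, score 141), THRA, the thyroid hormone receptor alpha gene (chr17:38223222-38233186, 9965 bp, score 124), and PTPRJ, a receptor phosphatase gene (chr11:48049131-48058306, 9176 bp, score 154). The THRA peak was 140 bp from a start and 2471 bp from H3K4me3. The farthest from any protein-coding start were 3 peaks of chromosome 4. A peak at chr4:33073819-33076159 (score 72.4) was 2147654 bp from PCDH7, a protocadherin gene, and the pair at chr4:34252039-34253540 and chr4:34272323-34273946 (scores 56.9 and 58.3) were 1794866 bp and 1774521 bp from ARAP2, in the lncRNA gene LINC02484. The remote peaks had scores near or below the median of 70.8, while the widest peaks included some at start sites.

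H3K4me1-only peaks were spread over many genes. At least 1 centre lay in 1461 of 19229 protein-coding genes (7.6%), with exactly 1 in 1052 of them, 2 in 258 and 5 or more in 40. Long genes offer more room. Host genes had a median length of 145.2 kb, against 27.6 kb for all genes, and 965 of the 3506 genes of 100 kb or more (27.5%) held a centre. Hosts of 100 kb or more had H3K4me3 at a start in 86.5% (84.2% to 88.5%), against 77.9% (76.5% to 79.2%) of all genes of that length, which include the hosts.

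The 10 genes with the most centres held 71 H3K4me1-only peaks, and all 10 had H3K4me3 at a start. Ties were ordered by density, and AKAP6 and FOXP1, which also held 6 each at 11.8 and 9.53 per Mb, fell outside the 10; AKAP6 had no H3K4me3 at a start. ARHGAP26 held 10 of them among 25 H3K4me1 peaks (21.8 per Mb of gene), with scores from 52.6 to 125. LPP, which encodes a LIM protein of focal adhesions, held 9 among 33 (12.2 per Mb), with scores up to 213. The genes with 7 were JARID2, for a cofactor of Polycomb complex PRC2 (25.4 per Mb), FNDC3B, for a fibronectin type III domain protein (19.3 per Mb), PALLD, for the actin-bundling protein palladin (16.2 per Mb), and MAML3, for a Notch coactivator (16 per Mb). LAMC1, which encodes the laminin gamma chain of basement membranes, held 6 in 122 kb and so had the highest density of these genes, 49.1 per Mb. The others of the 10 with 6 were LPAR1, for a lysophosphatidic acid receptor (36.3 per Mb), UBE2E2, for a ubiquitin-conjugating enzyme (15.4 per Mb), and SND1, for an RNA-binding nuclease (13.6 per Mb).

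Counted by the nearest start, whether or not the peak lay in the gene, 2221 genes were nearest to an H3K4me1-only peak, 1469 of them to exactly 1. The highest numbers, named after they were seen, were 12 for FOXP1, a forkhead factor gene, and 11 each for ARHGAP26, LPP and METTL15, a mitochondrial methyltransferase gene. TENM3, a teneurin gene, had 10, and DUSP6, for a phosphatase that restrains ERK, and ZNF608 had 9. Each of these genes had H3K4me3 at a start, where 68% of all protein-coding genes did. Of genes with 8, AKAP6 had none, while FNDC3B, HS3ST1, PAPPA and UBE2E2 had it.

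Some stretches of chromosome held many of these peaks. The 187 bins of 1 Mb with 5 or more (6.46% of 2897 bins) held 1208 H3K4me1-only peaks (33.2%). These bins were picked by that count, so a share above that of the bins is fixed by the choice. No such share was computed for all H3K4me1 peaks. The densest ran from 183000001 to 184000000 on chromosome 1, with 17 among 42 H3K4me1 peaks, of which LAMC1 held 6 and RGL1 4. The bin from 171000001 on chromosome 3 held 13 among 43 H3K4me1 peaks, with 6 in FNDC3B. That from 142000001 on chromosome 5 held 13 among 48, with 10 in ARHGAP26 and the rest between genes. The bin from 28000001 on chromosome 11 held 11 among 29, none in a protein-coding gene and all nearest to METTL15. The bin from 89000001 on chromosome 12 held 11 among 38, with 9 between genes and DUSP6 among the nearest. The densest bins therefore included both gene bodies and stretches between genes.

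The share of H3K4me1 peaks that were H3K4me1-only differed between chromosomes. It was highest on chromosomes 12 (276 of 1608, 17.2%, 15.4% to 19.1%), 5 (17.1%, 15.5% to 18.8%) and 4 (16.5%, 15.1% to 18.1%). It was lowest on chromosomes 19 (10 of 243, 4.12%, 2.25% to 7.41%) and 16 (19 of 427, 4.45%, 2.87% to 6.84%). Chromosome 2 had 173 of 2009 (8.61%, 7.46% to 9.92%), an interval that lies below those of the chromosomes of similar size, 1, 3 and 4. Per Mb, H3K4me1-only peaks ranged from 0.169 on chromosome 19 to 2.06 on chromosome 12, while all H3K4me1 peaks ranged from 4.11 to 12 on the same chromosomes. Chromosomes 16, 18, 19 and 21, low in this share, thus also had the fewest H3K4me1 peaks per Mb, while chromosome 2 had 8.26 per Mb. DNA copy number, which varies between chromosomes in this line, was not measured here, and its part in these shares was not tested.

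**Figure D4:**
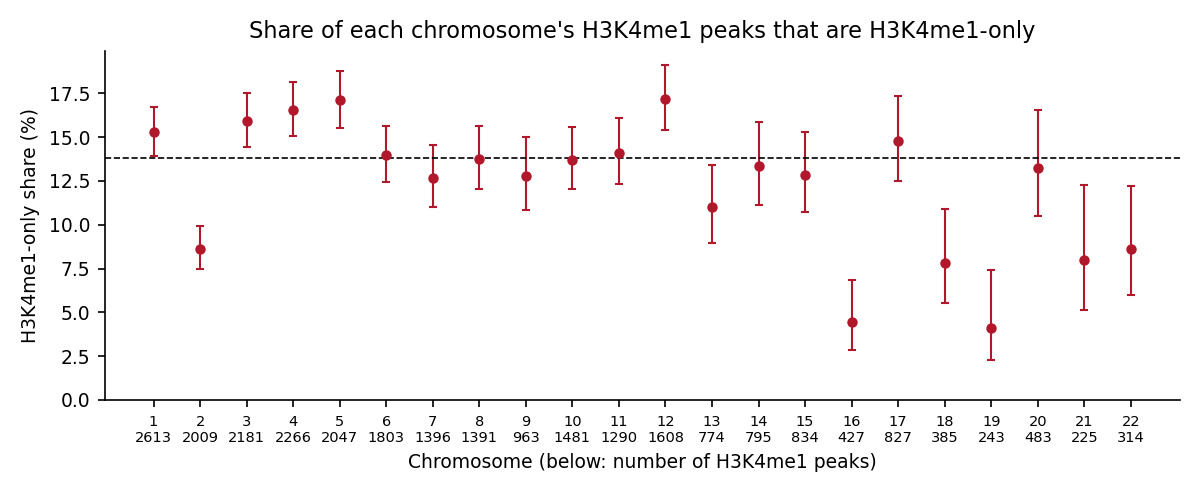
Share of the H3K4me1 peaks of each chromosome that were H3K4me1-only, in percent with 95% Wilson intervals, with the number of H3K4me1 peaks under each chromosome and a dashed line at the share over all, 13.8%. Chromosomes 2, 13, 16, 18, 19, 21 and 22 lie below the line with their whole intervals, and chromosomes 1, 3, 4, 5 and 12 above it.

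Gene lists for this cell type gave few members each. Of 25 basal and myoepithelial genes, 5 held an H3K4me1-only peak (20%, 8.86% to 39.1%, against 7.6% of all protein-coding genes), together 9 peaks or 4.91 per Mb of gene, where all protein-coding genes had 1.63 per Mb. H3K4me1 peaks of every kind were also denser in these genes, at 25.6 per Mb against 11.9 per Mb, so much of the difference was not particular to H3K4me1-only peaks. EGFR, for the epidermal growth factor receptor, had 2 with scores of 202 and 60.3, and TP63, for the p63 factor of basal cells, 2 with scores of 126 and 61.3. MYLK, for myosin light chain kinase, had 2 with scores of 75 and 52.4. The EGFR peak of the higher score was 7033 bp wide (chr7:55096818-55103850), 5561 bp from H3K27Ac and 15644 bp from FAIRE. Each of these 3 genes had H3K4me3 at a start.

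Of 25 mesenchymal genes 4 held such a peak (1.88 per Mb), and CD44, for the hyaluronan receptor, held 2, with scores of 72.9 and 68.5. Of 25 luminal mammary genes 2 did (1.34 per Mb), of 25 genes of the BMP and TGF-beta pathways 4 did (1.83 per Mb), and of 15 AP-1 family genes, which are short, none did (0%, 0% to 20.4%). The intervals of these shares are wide and those of the mesenchymal, luminal, BMP and TGF-beta and AP-1 lists include 7.6%. TGFBR2, for a TGF-beta receptor and on both the mesenchymal and the pathway list, held a peak with a score of 200.4 (chr3:30682051-30686871).

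Fragile site genes and neural genes are mostly long, so counts per gene and densities are both given. Of 24 fragile site genes 16 held an H3K4me1-only peak (66.7%, 46.7% to 82%), but their median length was 1491 kb and their density 1.05 per Mb, below that of all protein-coding genes. H3K4me1 peaks of every kind were also sparser in them, at 4.73 per Mb, and 35 of their 158 H3K4me1 peaks (22.2%) were H3K4me1-only, against 13.8% over all protein-coding genes. MACROD2 held 5 of them, CTNNA1, for alpha-catenin, PTPRG, for a receptor phosphatase, and PDE4D, for a cyclic AMP phosphodiesterase, 4 each, RORA, for an orphan nuclear receptor, 3 and DPYD, for a pyrimidine-degrading enzyme, 2, as did FHIT, DAB1 and DLG2. Of these genes CTNNA1 was the densest, at 12.3 per Mb, with a peak scoring 188 (chr5:138164528-138169182). Of 25 neural adhesion and synaptic genes, with a median length of 1105 kb, 5 held such a peak (20%, 8.86% to 39.1%, 0.315 per Mb, where all H3K4me1 peaks had 2.40 per Mb), with 3 in KCNIP4, for a potassium channel partner, and 2 in CNTN1, for contactin.

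Sequence was not used in choosing the peaks. TGANTCA was found in the central 500 bases of 1524 H3K4me1-only peaks (41.9%, 40.3% to 43.5%), against 40% of all H3K4me1 peaks of chromosomes 1 to 22. The same letters read backwards, ACTNAGT, which have the same base composition, were found in 507 (13.9%, 12.9% to 15.1%), against 14.4% of all H3K4me1 peaks. AP-1 letters were concentrated at the centre, with 1.05 per kb within 200 bases of it and 0.345 per kb at 4 to 5 kb, where the reversed letters went from 0.312 to 0.257 per kb. The share as called was near that of all H3K4me1 peaks, which include peaks sharing H3K4me3 at 22.6%. Between the width quartiles it was lower, at 43.7% (41.4% to 45.9%) against 52.2% (51% to 53.3%).

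**Figure D5:**
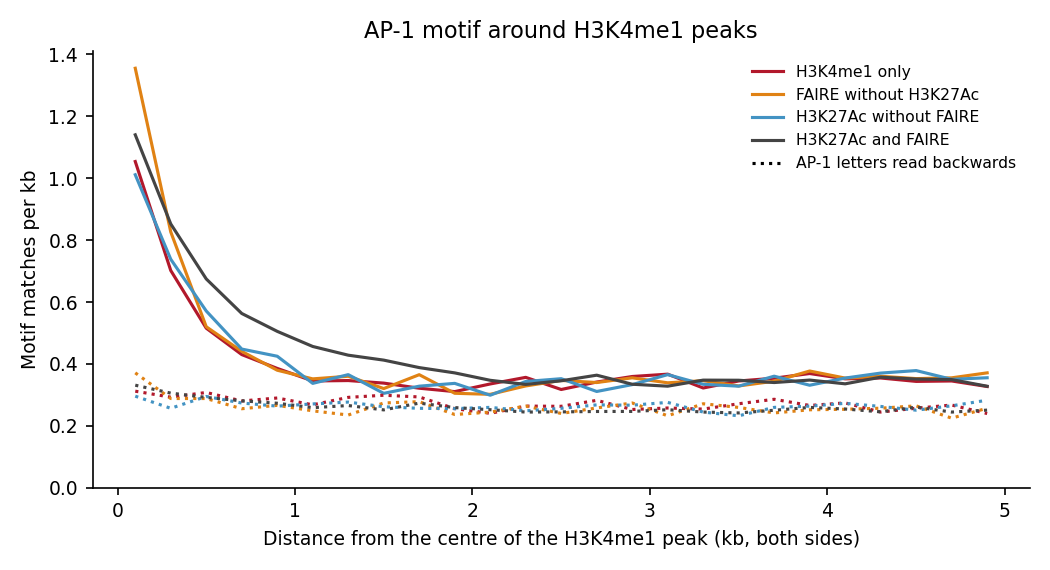
Matches per kb of the AP-1 letters TGANTCA (solid lines) and of the same letters read backwards (dotted lines), against distance in kb from the centre of H3K4me1 peaks, both sides together in bins of 200 bases, in the 4 classes. At the centre the H3K4me1-only peaks had 1.05 AP-1 matches per kb, FAIRE alone 1.36, H3K27Ac alone 1.01 and both 1.14, and at 4 to 5 kb each class was near 0.35.

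The AP-1 share fell with width among the H3K4me1-only peaks. It was 53.4% (50.1% to 56.6%) in the 909 peaks up to the lower width quartile, 48.4% and 38.9% in the next 2 sets of 909 and 27% (24.2% to 29.9%) in the widest 909, and the fixed window covers less of a wide peak. Over the whole length of the peaks the narrowest set had 0.692 matches per kb and the widest 0.521, so the difference was smaller when the entire peak was searched. As called, the share was 50.1% (48.3% to 51.9%) in peaks with FAIRE alone, 40.7% (38.7% to 42.6%) with H3K27Ac alone and 42.6% (41.7% to 43.4%) with both, and only the interval of FAIRE alone lies apart from that of the H3K4me1-only peaks. The reversed letters were also more frequent with FAIRE alone, at 16.65% (15.35% to 18.04%) against 13.9% (12.9% to 15.1%). This gap as called was thus not particular to the AP-1 letters. With H3K27Ac alone they were found in 13.3% (12% to 14.7%) and with both in 15% (14.4% to 15.6%).

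At similar width the classes separated more. Among peaks between the width quartiles of the H3K4me1-only peaks, the AP-1 share was 43.7% (41.4% to 45.9%) for 1819 H3K4me1-only peaks and 48.1% (45.1% to 51.2%) for 1025 peaks with H3K27Ac alone, with overlapping intervals. It was 62.9% (60.3% to 65.4%) for 1344 peaks with FAIRE alone and 62.5% (60.6% to 64.3%) for 2665 peaks with both. The reversed letters in this subset were found in 14.8% (13.2% to 16.5%) of the H3K4me1-only peaks. Overlapping intervals were found with FAIRE alone, at 17.3% (15.3% to 19.4%), with H3K27Ac alone, at 14.6% (12.6% to 16.9%), and with both, at 17.8% (16.4% to 19.3%). AP-1 letters per kb of peak in the same subset were 0.594 for H3K4me1-only peaks and 0.603 with H3K27Ac alone. They were 0.694 with FAIRE alone and 0.721 with both. With peaks of score 100 or more, where widths differ again, the shares were 35.5% (32.2% to 38.9%) for H3K4me1-only peaks, 44.4% (41.5% to 47.3%) with FAIRE alone, 39.7% (37% to 42.5%) with H3K27Ac alone and 40.1% (39.2% to 41.1%) with both. H3K4me1-only peaks had the lowest share in both settings, although the interval overlapped that of H3K27Ac alone in both. Per kb of peak they were not the lowest at score 100 or more, with 0.558, against 0.612, 0.549 and 0.583 in the order of these classes.

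Shares of the other motifs are not on a common scale with AP-1, since TGANTCA fixes 6 bases and each of those below fixes 7. TGANTCA also reads the same on both strands, while each of the others was searched as a different word on each strand. In H3K4me1-only peaks the forkhead letters TGTTTAC were found in 11.2% (10.2% to 12.3%), the RUNX letters TGTGGTT in 15.4% (14.3% to 16.6%) and the TEAD letters CATTCCA in 12.3% (11.2% to 13.4%). The GATA letters AGATAAG were found in 8.97% (8.08% to 9.94%), the CTCF core CACNAGGNG in 3.85% (3.27% to 4.53%) and the ETS letters CCGGAAG in 1.43% (1.09% to 1.87%). Over all H3K4me1 peaks the shares in this order were 9.53%, 14.1%, 12.3%, 8.03%, 4.31% and 1.77%. As called, intervals were apart for forkhead, above the class with both (9.2%, 8.71% to 9.7%), for RUNX, above H3K27Ac alone (12.7%, 11.4% to 14%), and for TEAD, below H3K27Ac alone (14.9%, 13.5% to 16.3%). Between the width quartiles the forkhead and RUNX intervals of these pairs overlapped. Only TEAD stayed apart there, at 13% (11.6% to 14.7%) for H3K4me1-only peaks and 17.2% (15% to 19.6%) with H3K27Ac alone. Median GC content of the window was 41.2% (41% to 41.4%) in H3K4me1-only peaks, 41.8% with FAIRE alone, 41% with H3K27Ac alone and 41.8% with both. A match of letters is a description of the sequence and does not show that a factor was bound.

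Within the H3K4me1-only peaks, AP-1 letters also varied with the surroundings. The share was 38.2% (35.5% to 40.9%) in 1265 peaks less than 5 kb from any other list, 42.6% (40.1% to 45.2%) at 5 to 20 kb, 44.5% (41.2% to 47.8%) at 20 to 100 kb and 58.6% (48.1% to 68.4%) in the 87 peaks beyond. Intron shares went the other way, from 55.9% (53.1% to 58.6%) in the nearest group to 33.3% (24.3% to 43.8%) in the most isolated. The nearest gene had H3K4me3 at a start for 84.5% (82.4% to 86.4%) in the nearest group and 54% (43.6% to 64.1%) in the most isolated, but the grouping itself uses H3K4me3 peaks, so this fall is partly fixed by the choice. The isolated peaks were thus less often in introns and more often held AP-1 letters than the nearest group, in a group of only 87. Width was not held fixed here, and these quantities also moved with it. From the narrowest to the widest 909 peaks the AP-1 share fell from 53.4% to 27%. Intron shares rose from 49.2% to 57.2%, and shares with H3K27Ac less than 5 kb away from 25.4% to 33%. The part of width in this grouping was not tested.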

How the data were processed

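The samples were 2 each of H3K4me1, H3K4me3 and H3K27Ac ChIP-seq and of FAIRE-seq from MDAMB231 cells, with 1 input for each assay type. According to the study's methods, the authors aligned reads to GRCh37 (hg19) with BWA. The 2 assays per condition were first treated separately, and their data were merged for later steps. The submitters' processing notes name TopHat and HOMER. The deposited histone values are on a −log10 scale, as minus 10 times log10 p from MACS. The deposited FAIRE values are the height of the signal from FindPeaks, used here only in a stricter setting. Starts were read as counted from 0, which no header states, and are printed from 1. Overlap meant 1 shared base.

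Members and gene lists were chosen with earlier results of these data known. Overlaps, distances to the nearest start of any protein-coding transcript, and motif matches were computed with numpy 2.4.6, pandas 2.3.3, scipy 1.17.1 and pysam 0.24.0, and tested on simulated data against bedtools 2.31.1. Named peaks were the 10 of highest score, the 5 widest, the 3 farthest from a start and those nearest to the threshold. Named genes were the 10 with most centres, those of the 5 densest 1 Mb bins, and list genes with at least 2 centres, at most 6 a list. The fragile site gene FAM190A was matched as CCSER1 by its older symbol in RefSeq (GRCh38.p14, names only). Sequences of chromosome 8 were not printed. Comparisons are of intervals, without tests. Settings tried were thresholds, gaps, widths, annotation, start sites and windows.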

Additional observations from a re-analysis of the deposited data

Results flagged for a closer look

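Chromosome X, which the choice of peaks left out, also had H3K4me1 peaks that shared no base with another list. They numbered 17 of 412 (4.13%, 95% Wilson interval 2.59% to 6.51%), with a median width of 2052 bp and a median score of 67.3. They are listed here because the comparisons did not use that chromosome. The share was close to the shares on chromosomes 16 and 19.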

How the results depend on the processing

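No paired analysis was possible, and samples could not be left out 1 by 1, because replicates were combined into 1 list per assay. Of 34 values under other settings, 19 stayed within the interval of the main value, or for counts within 1.5 times it, and 15 did not. H3K4me1 peaks of p at or under 1e-10 left 789 H3K4me1-only peaks in place of 3636, or 5.23% of 15087 H3K4me1 peaks in place of 13.8%, with a median width of 2735 bp, 56.9% in introns, 41.2% outside protein-coding genes and 35.5% with AP-1 letters. Stricter other lists (score of at least 100, FAIRE at or above the median height) gave 6661 peaks, 44.4% of them with AP-1 letters, since fewer peaks could meet them. Between the width quartiles the median distance to a start was 31688 bp and the AP-1 share 43.7%. With all GENCODE genes, 67.7% were in introns and 27.7% outside genes. With 1 start site a gene, the median distance was 71370 bp and the share with H3K4me3 at the nearest gene 69.7%. AP-1 letters were found in 20.5% with 200 bases and in 59.8% with 1000 bases, as the window's size alone changes. Counting only other peaks over the centre gave 5398 peaks, just within that limit. A gap of at least 1 kb to other lists left 3404 peaks and kept every other value within its interval. Where the causes are not given here, the cause was not tested. A peak that missed a caller's threshold counts here as absent, so H3K4me1-only means that no peak was called in the other lists, and weak H3K27Ac or FAIRE signal under a peak was not measured here. The stricter and looser counts, 789 and 6661, show how far membership rests on these thresholds.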
